A study of Arabidopsis thaliana with 18 samples.

Results

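AT3G62725 is an annotated pseudogene on chromosome 3 of Arabidopsis thaliana, and its DNA methylation was followed here window by window in 9 lines. The tract was chosen from the measured levels themselves: it is the region from 23203551 to 23207450 (TAIR10) in which windows of epiRIL 150 read at least 0.2 below the wild type. It holds 77 overlapping windows of 100 bp, placed every 50 bp, out of 43887 in the deposited table. Of these 77, 75 meet that limit, and the other 2 had differences from Col-Wt of -0.154 and -0.160. Values below use the 39 windows that do not overlap, all of which meet the limit and had a level in every line. The 2000 bp before the tract served as flank.

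Bisulfite sequencing, in which unmethylated cytosines are converted and read as thymine, was performed on DNA from aerial rosettes harvested 21 to 22 days after sowing from plants grown in a cycle of 16 h light and 8 h dark. In all, 18 libraries were made, 2 each of the wild type Columbia (Col-Wt), of the epigenetic recombinant inbred lines epiRIL 92, epiRIL 150, epiRIL 193 and epiRIL 232, and of the epiHybrids 92, 150, 193 and 232. The authors deposited 1 methylation level per window and line, so no value below has an error between plants or libraries. The SDs given are spreads over windows along the tract. The levels are fractions of methylation over all cytosine contexts together, and the deposited number beside each level counts cytosines and not reads, so the read depth is unknown.

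Most DNA methylation of plant genomes lies on transposons and other repeats, where it goes with silencing. It occurs in the contexts CG, CHG and CHH (H is any base but G), which are maintained by different methyltransferases. The chromatin remodeller DDM1 gives these enzymes access to heterochromatin. The epiRILs are known to descend from a cross of the wild type with a ddm1 mutant, so that each line inherited some chromosome segments from the hypomethylated parent and the others from the wild type. Pseudogenes are disabled copies of genes, and some annotated pseudogenes are remnants of transposons. Whether AT3G62725 is one was not examined. Crossing an epiRIL, here with Col-Wt, gives in the next generation an epiHybrid. The labels do not name the wild-type parent. It is taken from what is published on these lines, and the authors' deposited differences from the mid-parent level match it.

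In the RefSeq annotation of TAIR10.1, AT3G62725 spans 23203792 to 23207565, a length of 3774 bp. The tract covers 3659 bp of it, or 97.0%, and its first 241 bp lie before the pseudogene in sequence with no annotated gene. The measured interval ends at 23207500, so the last 65 bp of the pseudogene and everything after it were not measured. The nearest gene before the tract is XT1 (AT3G62720), which encodes a xylosyltransferase that adds xylose side chains to the cell wall polymer xyloglucan. Its annotated end lies 562 bp before the tract. The protein-coding gene AT3G62730 starts 403 bp after the tract, outside the measured interval.

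The 9 lines fell into 3 levels over the tract. Col-Wt, epiRIL 92 and epiHybrid 92 were methylated throughout. EpiRILs 150, 193 and 232 had nearly no methylation, and their 3 epiHybrids lay in between. This order held in 38 of the 39 windows: the 3 lines at the high level read above the hybrids of lines 150, 193 and 232, and these read above their 3 epiRILs. In the remaining window at least 1 hybrid read above at least 1 of the high lines. Since windows were chosen for a high Col-Wt and a low epiRIL 150, the separation of these lines is a description and was not tested.

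In Col-Wt the mean level was 0.340 ± 0.0704 (SD over 39 windows), with a lowest window of 0.208, a median of 0.323 and a highest of 0.522. In epiRIL 92 the mean was 0.371 ± 0.0715, and its windows ran from 0.271 through a median of 0.346 to 0.524. In epiHybrid 92 the mean was 0.380 ± 0.0749, with windows from 0.226 through 0.379 to 0.605. The windows of these 3 lines overlapped widely.

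EpiRIL 150 read 0.00986 ± 0.0144 on average, with a lowest window of 0, a median of 0.00663 and a highest of 0.0826. EpiRIL 193 read 0.00881 ± 0.0123, from 0 through 0.00479 to 0.0721. EpiRIL 232 read 0.0157 ± 0.0204, from 0 through 0.00644 to 0.109. The highest window of each of these epiRILs was below the lowest window of Col-Wt.

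EpiHybrid 150 read 0.244 ± 0.0577, with windows from 0.129 through a median of 0.249 to 0.347. EpiHybrid 193 read 0.2001 ± 0.0605, from 0.0332 through 0.202 to 0.310. EpiHybrid 232 read 0.188 ± 0.0494, from 0.0884 through 0.183 to 0.300. In every one of the 39 windows each of these hybrids was above its own epiRIL. The windows of the 3 hybrids overlapped each other. The means of epiHybrids 193 and 232 differed by less than the spread over windows of either line, as did those of epiHybrids 150 and 193. Between epiHybrids 150 and 232 the difference was below the spread of epiHybrid 150 and above that of epiHybrid 232.

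**Figure D1:**
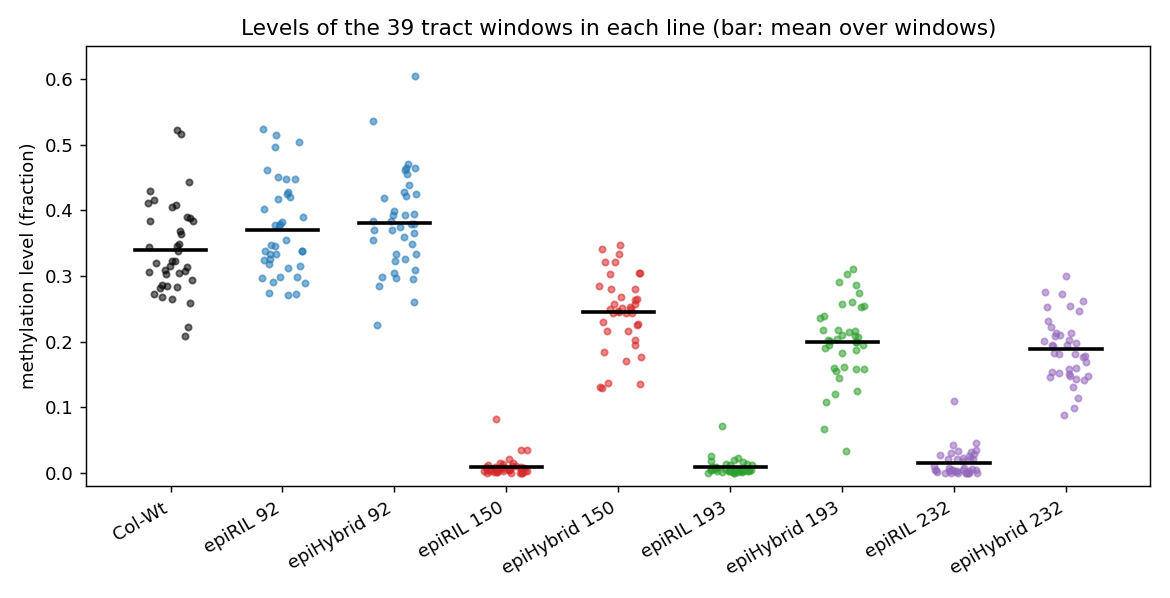
Methylation level (fraction, y axis) of the 39 non-overlapping tract windows in each of the 9 lines; points are windows, spread sideways at random, and bars are means over windows. The epiRILs 150, 193 and 232 sit near 0 (means 0.00986, 0.00881 and 0.0157), their hybrids between 0.188 and 0.244, and Col-Wt and line 92 between 0.340 and 0.380.

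Expressed as a share of the Col-Wt level, the tract held 2.90% in epiRIL 150, 2.59% in epiRIL 193 and 4.61% in epiRIL 232. EpiRIL 92 held 109.1%. Elsewhere in the same interval, in 403 windows at 0.2 or more in Col-Wt, epiRIL 150 stood at 43.2% of Col-Wt, epiRIL 193 at 42.4%, epiRIL 232 at 36.0% and epiRIL 92 at 93.6%. The low shares of the tract are in part fixed by its choice.

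By windows, 39 of 39 were lower than Col-Wt by at least 0.2 in epiRIL 150, against 2.28% of the windows of the whole table. That count is the choice of the tract itself, and nothing is read from it. In epiRIL 193 the count was again 39 of 39 (2.62% over the whole table), and in epiRIL 232 it was 37 of 39 (3.33%). In epiRIL 92 it was 0 of 39 (0.525%). These comparisons share the Col-Wt column with the choice of the tract, so they too are descriptions.

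A weak background was present in all lines. In 15675 windows of the table with a mean level under 0.02 over the 9 lines, Col-Wt had a level of 0.00790, epiRIL 150 of 0.00566, epiRIL 193 of 0.00538 and epiRIL 232 of 0.00467. Less this background, epiRIL 150 held 1.27% of the Col-Wt level in the tract, epiRIL 193 1.04% and epiRIL 232 3.31%. The tract level was 1.74 times the level in these weakly methylated windows in epiRIL 150, 1.64 times in epiRIL 193 and 3.35 times in epiRIL 232.

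The small methylation left in the 3 epiRILs was not spread evenly. In 29 of 39 windows epiRIL 150 read under 0.01, as did epiRIL 193 in 29 and epiRIL 232 in 22. A single window per line among the 39 reached 0.05. Counting overlapping windows, the peak in epiRIL 150 was at 23204301 to 23204400, with a level of 0.0950 from 36 cytosines. The peak in epiRIL 232 lay 50 bp before it, at 23204251 to 23204350, with 0.109 from 50 cytosines. At this place epiRIL 193 read 0.0224.

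In epiRIL 193 the peak was at 23204101 to 23204200, with 0.0763 from 42 cytosines. EpiRIL 150 read 0.0627 there and epiRIL 232 read 0.0400. The peaks of the 3 epiRILs thus all lay between 23204101 and 23204400, inside the pseudogene, where Col-Wt read 0.364 to 0.434 in the same windows. They were not a single site. In the window centred 700 bp from the tract start, between the peaks, epiRILs 150, 193 and 232 read only 0.00176, 0.00338 and 0.00408. EpiRIL 232 also read 0.0498 at 23203901 to 23204000 and 0.0407 at 23206001 to 23206100. At the last of these epiRILs 150 and 193 read 0 and 0.00184.

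**Figure D2:**
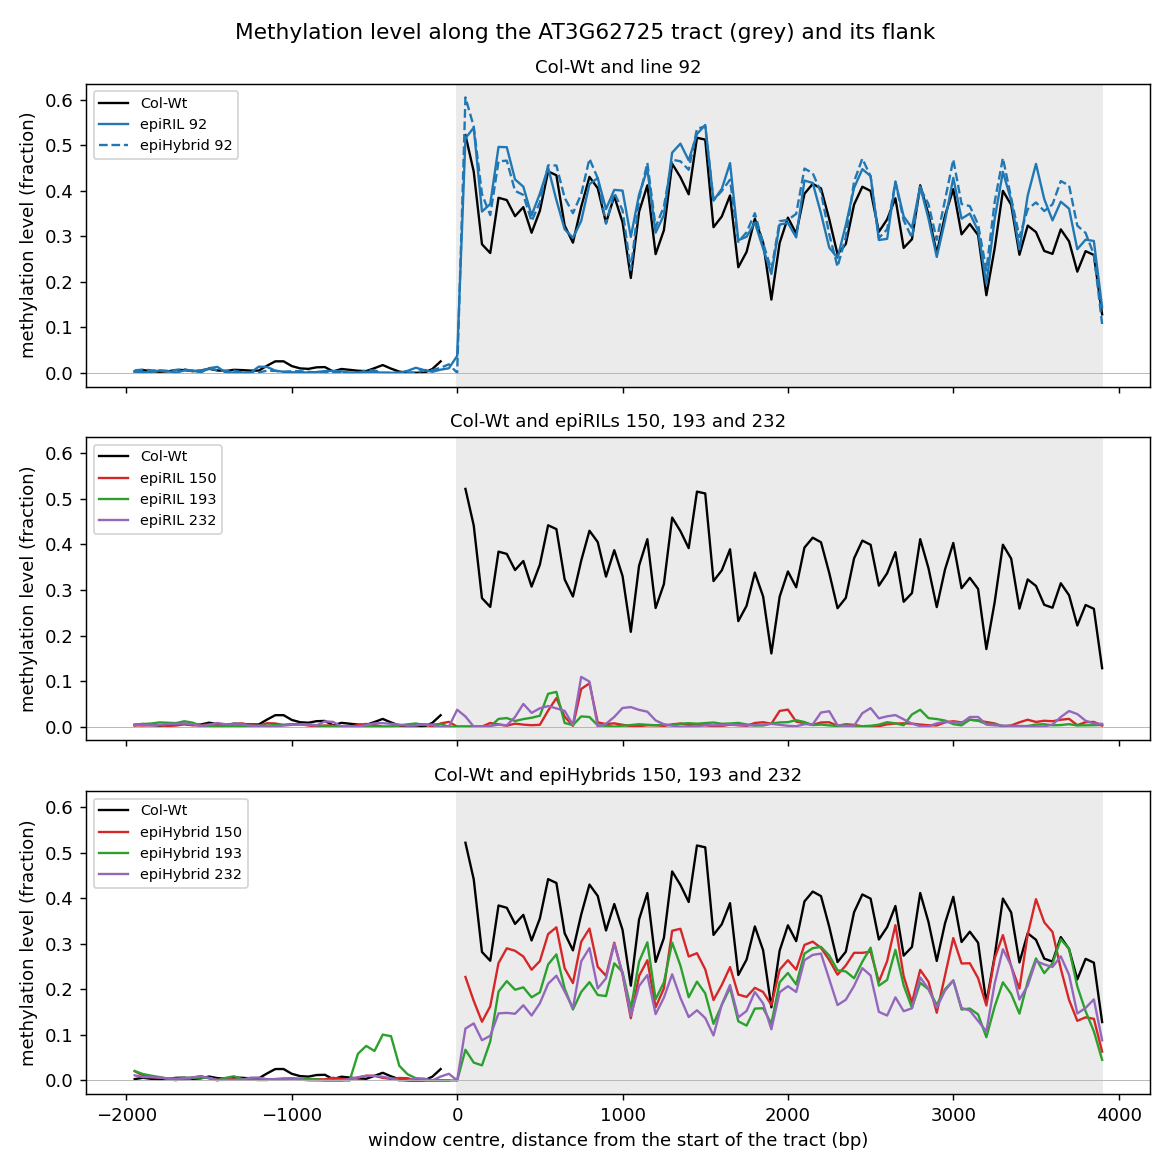
Methylation level (fraction, y axis) of every window against the distance of its centre from the start of the tract (bp, x axis); the grey band is the tract, and gaps are windows with no level. All 9 lines read near 0 in the flank except for a low rise in epiHybrid 193, Col-Wt and line 92 run together across the tract, and epiRILs 150, 193 and 232 show small rises up to 0.109.

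The tract began abruptly. Going from the flank inwards, the first of 3 successive windows at 0.1 or more was the first window of the tract, 23203551 to 23203650, in Col-Wt, epiRIL 92, epiHybrid 92 and epiHybrid 150. Its level was 0.522 in Col-Wt, 0.605 in epiHybrid 92, 0.515 in epiRIL 92 and 0.227 in epiHybrid 150. In Col-Wt and epiHybrid 92 this window was the highest of the 39. In epiHybrids 193 and 232 the first such window began at 23203751, with 0.195 and 0.147. In epiHybrid 193 the windows of the tract before it read at most 0.0857. In epiHybrid 232 the first pair of tract windows read 0.114 and 0.125, and the next pair read 0.0884 and 0.0981, under the limit. In epiRILs 150, 193 and 232 no such run was found.

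Cytosines were few at this edge. The first tract window rested on 14 cytosines in Col-Wt and on 11 to 14 in the hybrids. Of the epiRILs, line 92 had 20 there, line 150 had 5, line 193 had 7 and line 232 had 15. The window that straddles the edge, 23203501 to 23203600, had no level in Col-Wt or epiHybrid 150, and at most 9 cytosines in the other lines, where it read at most 0.0370. The window before it, 23203451 to 23203550, likewise had no Col-Wt level. In the other lines it read at most 0.0185, from 9 to 19 cytosines. The step in Col-Wt can therefore be placed only between the window 23203401 to 23203500, at 0.0250 from 10 cytosines, and the first tract window. Over the tract as a whole the median window held 41 cytosines in all 9 lines.

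**Figure D3:**
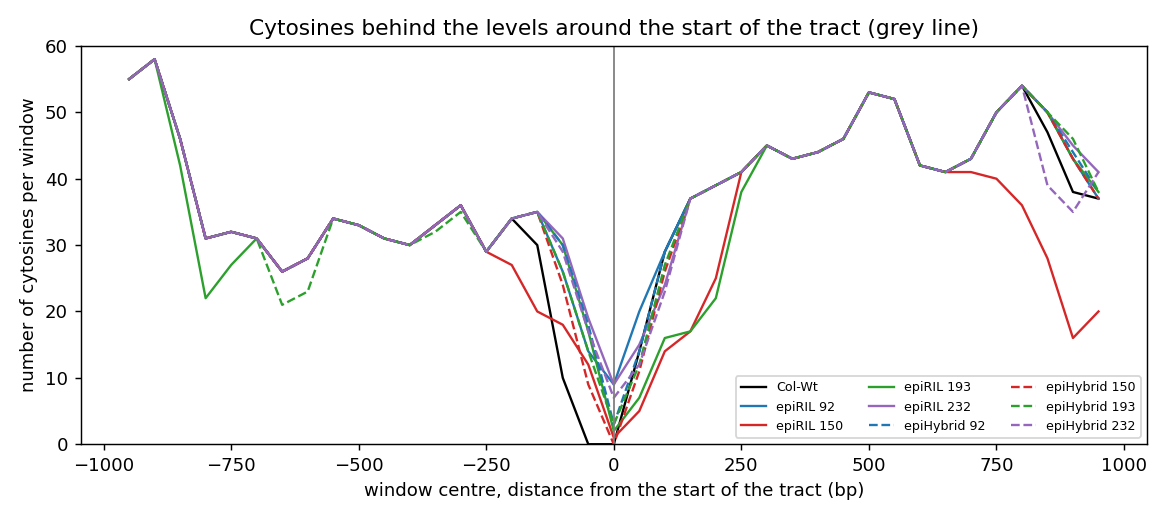
Number of cytosines behind the level of each window (y axis) against the distance of the window centre from the start of the tract (bp, x axis; grey line at 0), with epiHybrids dashed. All lines dip around the edge, Col-Wt to 0 in both windows just before the tract, and from 300 bp to 650 bp into the tract the lines share the same counts.

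At the other end the tract ends by its limit and not at a step. The last tract window, 23207351 to 23207450, had a level of 0.259 in Col-Wt, and epiRIL 150 stood at 0.0103, which is a difference of -0.248. The next window, 23207401 to 23207500, which is the last of the interval, read 0.128 and 0.00222, a difference of -0.126, and was left out by the limit of 0.2. It was the lowest in Col-Wt after the start of the tract, and epiRIL 92 and epiHybrid 92 also read low there (0.144 and 0.107). How methylation goes on past 23207500 was not analysed here.

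The 3 windows that lie in the tract before the annotated start of the pseudogene did not read lower than the rest in Col-Wt. They overlap each other and averaged 0.415 in Col-Wt, 0.513 in epiHybrid 92 and 0.469 in epiRIL 92. In epiRILs 150 and 193 they read 0 in each window, from 5 to 17 cytosines, and in epiRIL 232 0.00741. EpiHybrid 150 read 0.177 there, epiHybrid 232 0.109 and epiHybrid 193 0.0466. These windows thus held the lowest values of epiHybrid 193 in the tract.

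Along the tract the Col-Wt level undulated between 0.208 and 0.522 without a gap. In consecutive stretches of 500 bp (the last of 400 bp) it averaged 0.368, 0.385, 0.376, 0.309, 0.350, 0.336, 0.314 and 0.266, so the last stretch was the lowest. EpiRIL 92 read 0.427, 0.386, 0.424, 0.347, 0.352, 0.340, 0.351 and 0.329 in the same stretches, and epiHybrid 92 0.439, 0.411, 0.410, 0.346, 0.372, 0.352, 0.363 and 0.340. Both lay above Col-Wt in each of the 8 stretches.

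The rises and dips of the profile recurred in line 92. The 39 windows are neighbours in 1 genome and are not independent replicates. Across them the correlation with Col-Wt was r = 0.85 for epiRIL 92 and r = 0.89 for epiHybrid 92. It was r = 0.54 for epiHybrid 150, r = 0.27 for epiHybrid 193 and r = 0.20 for epiHybrid 232 (all Pearson). By ranks (Spearman) it was 0.79 for epiRIL 92 and 0.85 for epiHybrid 92. For epiHybrids 150, 193 and 232 the rank values were 0.56, 0.42 and 0.35. Among themselves the hybrids 150, 193 and 232 had r of 0.65 (150 with 193), 0.58 (150 with 232) and 0.71 (193 with 232). Windows hold different mixtures of CG, CHG and CHH cytosines, which the table does not separate.

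Line 92 read slightly above Col-Wt over the tract. EpiRIL 92 was above Col-Wt in 30 of 39 windows, while in the other 1283 windows of the table at 0.2 or more in Col-Wt it was above in 47.6%. EpiHybrid 92 was above in 36 of 39 windows, against 58.8%. The mean difference from Col-Wt was 0.0309 ± 0.0388 (SD of the differences over 39 windows) in epiRIL 92 and 0.0403 ± 0.0339 in epiHybrid 92. No test was made with 1 column per line. Col-Wt, which had the highest background level, stayed below line 92 with the background subtracted: epiRIL 92 then stood at 110.2% of Col-Wt. Among 23 annotated genes with at least 10 windows at 0.2 or more in Col-Wt, 16 had a higher mean in epiRIL 92 than in Col-Wt. Of these 23, 9 stood at a higher share of Col-Wt than AT3G62725.

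The design also asks whether an epiHybrid has the level midway between its parents. Over the tract all 4 epiHybrids read above it. EpiHybrid 150 read 0.244 where its mid-parent level was 0.175, a difference of 0.0696 ± 0.0466 (SD over 39 windows). EpiHybrid 193 read 0.2001 with a mid-parent level of 0.174, a difference of 0.0258 ± 0.0617. EpiHybrid 232 read 0.188 with 0.178, a difference of 0.0107 ± 0.0541, which was 0.0217 without the first 500 bp of the tract. EpiHybrid 92 read 0.380 with 0.355, a difference of 0.0249 ± 0.0278. In line 150 alone was the difference larger than its spread over windows.

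Over the 4 lines the difference averaged 0.0328 ± 0.0255 (SD, n = 4 lines), above 0 in 4 of 4 lines. A permutation test that flips the sign of each line (exact, two-sided) gave p = 0.125, the smallest value 4 lines allow, so this design cannot reach 0.05. The tract was chosen by the levels of Col-Wt and epiRIL 150, the parents of line 150. Col-Wt is also a parent in the other lines, so the test is not independent of that choice. Without line 150 the mean difference was 0.0205, which still rests on the same Col-Wt values.

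On a scale where 0 is the Col-Wt level, 0.5 the mid-parent level and 1 the epiRIL level, epiHybrid 150 stood at 0.289, epiHybrid 193 at 0.422 and epiHybrid 232 at 0.467. As a share of Col-Wt, these hybrids held 71.9, 58.9 and 55.5%, with mid-parent levels of 51.5, 51.3 and 52.3%. EpiHybrid 150 was the highest of the 3 in 31 of 39 windows, and epiHybrid 232 the lowest in 22. Since the 3 epiRILs had nearly the same low level, the order of these hybrids comes from the hybrids' own levels and hardly from the mid-parent level. It was not tested.

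Relative to the mid-parent level, 37 of 39 windows were above it by any size in epiHybrid 150, 28 in epiHybrid 193 and 26 in epiHybrid 232. In all other windows that the epiRIL of the line had lost by at least 0.2, the share above was 75.0% in line 150, 64.2% in line 193 and 49.9% in line 232. Departures of at least 0.1 above the mid-parent level were found in 9 of 39 windows of epiHybrid 150 (1.08% of all windows of the table). They were found in 2 windows of epiHybrid 193 (1.09%), 2 of epiHybrid 232 (0.811%) and 0 of epiHybrid 92 (0.984%). At least 0.1 below it were 0 windows of epiHybrids 92 and 150 (0.403 and 0.393%), 2 of epiHybrid 193 (0.398%) and 2 of epiHybrid 232 (0.469%). Lower than Col-Wt by at least 0.2 were 2 windows of epiHybrid 150 (0.459%) and 4 of epiHybrid 193 (0.653%). So were 8 of epiHybrid 232 (1.13%) and 0 of epiHybrid 92 (0.265%). Most windows behind these shares of the table are weakly methylated, while the tract windows are all methylated in Col-Wt. The shares are therefore no like comparison.

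The position of the hybrids changed along the tract. In the first 500 bp epiHybrids 193 and 232 were below their mid-parent levels, at 0.136 against 0.189 and 0.128 against 0.192, which are positions of 0.649 and 0.682. For epiHybrid 193 this came from the windows starting at 23203551 and 23203651, at 0.0675 and 0.0332. Its later windows there read 0.195, 0.199 and 0.183, close to the mid-parent level of each. EpiHybrid 232 was below in each window of this stretch. In the last stretch, 23207051 to 23207450, epiHybrids 193 and 232 were above, at 0.215 against 0.135 and 0.213 against 0.140, with positions of 0.193 and 0.209. EpiHybrid 150 stood at 0.382 in the first stretch and 0.1996 in the last, and was above its mid-parent level in 8 of 8 stretches, with differences of 0.0430 to 0.102. EpiHybrid 193 was above in 7 of 8 stretches and epiHybrid 232 in 6 of 8. In the last stretch the 3 hybrids had nearly the same mean level (0.215, 0.215 and 0.213), whereas in the first they ranged from 0.128 to 0.228. These means of 4 windows hide differences, with SDs over windows of 0.103, 0.0837 and 0.0601 in epiHybrids 150, 193 and 232. At 23207051 to 23207150 the same hybrids read 0.347, 0.236 and 0.255. At 23207251 to 23207350 they read 0.131, 0.207 and 0.147.

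The Col-Wt level went from 0.368 in the first stretch to 0.266 in the last, which enters each of these positions. EpiHybrid 193 read 0.136, 0.219, 0.229, 0.165, 0.255, 0.211, 0.174 and 0.215 over the 8 stretches, where its first value was the lowest. EpiHybrid 232 read 0.128, 0.234, 0.178, 0.165, 0.223, 0.178, 0.193 and 0.213. EpiHybrid 150 read 0.228, 0.285, 0.243, 0.209, 0.269, 0.235, 0.264 and 0.215. From one stretch to the next, epiHybrid 150 moved in the direction of Col-Wt in 6 of 7 steps, and epiHybrids 193 and 232 in 5 of 7 each. EpiHybrid 92 did so in 5 of 7, epiRILs 92 and 193 in 4 each and epiRIL 150 in 3. EpiRIL 232, with nearly no methylation, did so in 6 of 7. The count thus does not separate lines that kept the Col-Wt profile from lines that lost it. The few cytosines at the start of the tract fall in the first stretch, and their part in its low hybrid values was not tested. In the stretch from 23206551 to 23207050, 1 window held only 15 cytosines in Col-Wt and epiRIL 150 and 16 in epiRIL 193. The last stretch held a window with 17 in epiRIL 193. The part of these in the hybrid differences and positions there was not tested either.

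**Figure D4:**
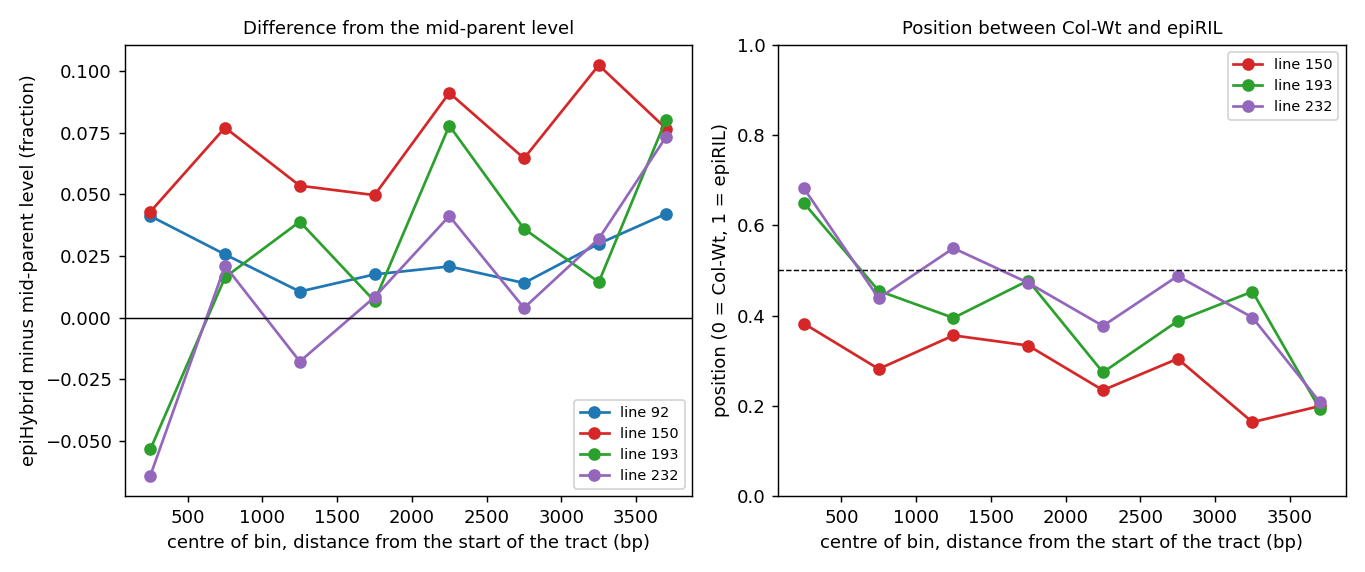
Difference of each epiHybrid from its mid-parent level (left, fraction; line at 0) and position of the hybrid between Col-Wt at 0 and its epiRIL at 1 (right; dashed line at the mid-parent position), in 8 stretches along the tract, by distance of their centre from its start (bp). Lines 193 and 232 start below the mid-parent level in the first stretch (positions 0.649 and 0.682). In the last stretch, of 4 windows, the 3 lines stand near 0.2 (0.1996, 0.193 and 0.209), although their single windows differ. Line 92 has no position because its epiRIL had not lost the tract.

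The flank was nearly unmethylated. It covers most of XT1 and the sequence between that gene and the tract, and 19 non-overlapping windows had a level in all lines. The mean was 0.00736 in Col-Wt, 0.00331, 0.00325, 0.00356 and 0.00403 in epiRILs 92, 150, 193 and 232, and 0.00313, 0.00483 and 0.00418 in epiHybrids 92, 150 and 232. In these 8 lines no flank window with a level in that line exceeded 0.0370, the edge window included. The methylation of Col-Wt thus stopped at the start of the tract, within the resolution of the windows. With so little Col-Wt methylation in the flank, a loss there in epiRILs 150, 193 and 232 could not be seen.

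EpiHybrid 193 differed from the other lines in the flank, with a mean of 0.0148. Its 5 overlapping windows from 23202901 to 23203200 averaged 0.0795, from 0.0587 to 0.101, on 23 to 34 cytosines. In the same windows epiRIL 193 read 0 throughout and Col-Wt averaged 0.00886, with 0.0169 as the highest value in any other line. This stretch of 300 bp begins in the annotated end of XT1 and ends 350 bp before the tract. Single windows of this kind were also found elsewhere and in every line. For this, 16886 windows of the table with at least 10 cytosines in every line were searched. In epiHybrid 193, 68 were at 0.05 or more with all other lines under 0.02. The other lines had 46 to 122 such windows each. Runs of such windows were not counted, so how rare a stretch like this is remains unknown.

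Among the 23 genes with at least 10 windows at 0.2 or more in Col-Wt, 18 are annotated as pseudogenes, and the 3 with levels most like AT3G62725 over the 9 lines all belong to them. AT3G62725 itself had 36 such windows. The closest was AT3G60164, with a root mean square difference in level of 0.0162 over the 9 lines and 16 windows, on chromosome 3 at 22232023 to 22237075. The second was AT3G60170 (0.0271, 10 windows), which lies within AT3G60164 and so shares its windows. The third was AT3G60565 (0.0325, 31 windows), at 22383922 to 22389906. All these pseudogenes were measured in the same interval as AT3G62725, which starts at 22235451. AT3G60164 and AT3G60170 begin before that position, so only their parts within the interval were measured. Some of the 23 genes overlap each other. In all, 6 of the 23 genes, AT3G62725 included, stood at or under 25% of Col-Wt in epiRILs 150, 193 and 232, and all 6 kept at least 75% in epiRIL 92.

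The likeness is not complete in the hybrids. EpiHybrid 150 read 0.248 over the AT3G62725 windows, 0.219 over AT3G60164, 0.182 over AT3G60170 and 0.288 over AT3G60565. Among the 11 genes lost in epiRIL 150, AT3G62725 stood at 0.269, and 3 of the other 10 were nearer to Col-Wt (range 0.225 to 0.501, median 0.350). Among the 12 lost in epiRIL 193 it stood at 0.388, the same as the median of the others (0.388), and among the 16 lost in epiRIL 232 at 0.441, with a median of 0.429 in the others. AT3G62725 was thus within the range of the other lost genes in each of the 3 hybrids.

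**Figure D5:**
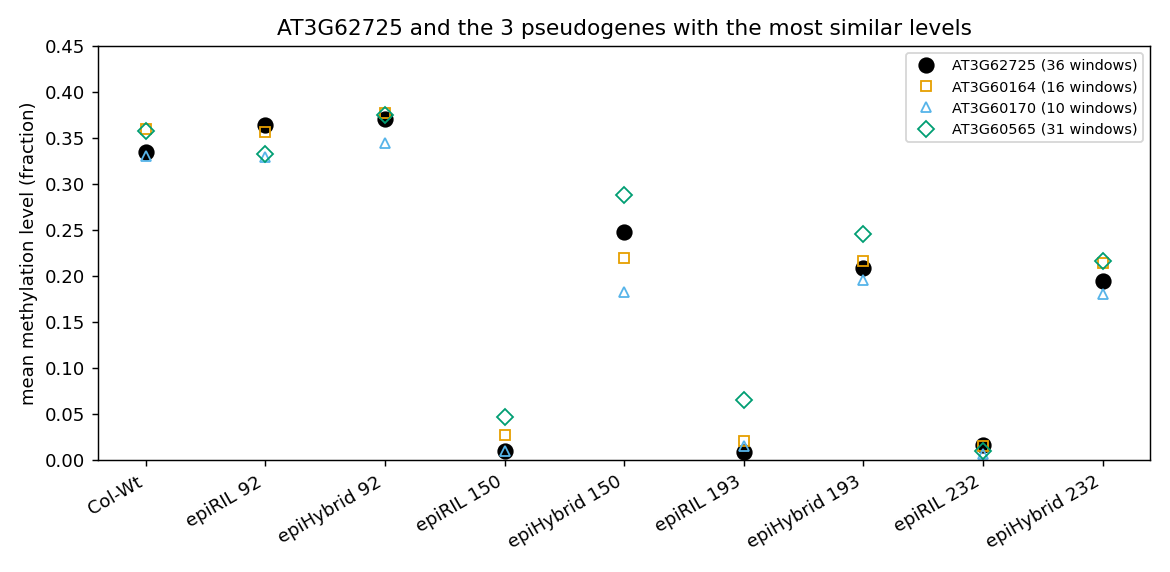
Mean methylation level (fraction, y axis) over the Col-Wt methylated windows of AT3G62725 and of the 3 pseudogenes with the most similar levels, in each of the 9 lines. All 4 read 0.331 to 0.360 in Col-Wt and at most 0.0652 in epiRILs 150, 193 and 232, while epiHybrid 150 spreads from 0.182 to 0.288.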

How the data were processed

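DNA methylation was measured by bisulfite sequencing in 18 libraries of 9 lines. Per the submitters' processing notes, the tools included BS-Seeker2, Bowtie2 and cutadapt, and the build was TAIR10; versions were not given. The authors deposited a fraction from 0 to 1 per window of 100 bp and line, with both libraries in 1 column; the way of combining them is not given in the sources. Pooling of contexts means that a change in CG, CHG or CHH cannot be told apart. That the deposited number counts cytosines was read from its values, since a level is missing exactly where it is 0 and no window exceeds 72. Deposited hybrid differences were recomputed within 5.6e-16, and 8 further columns were not used.

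Means are plain means over windows that do not overlap. No test was made between windows. Hybrids were compared with mid-parent levels by an exact sign-flip permutation test over 4 lines. The code of this test was checked on fixed values with a known answer, and that of the position on simulated data. Calls used 0.2 against Col-Wt and 0.1 against the mid-parent level. Background shares use 19614 non-overlapping windows with a level in all lines. Genes were compared by root mean square difference in level, and the closest 3 were named. The tract, lists and limits were chosen with earlier results of these data known. Alternatives were other window sets, a minimum of 10 cytosines, weights and background subtraction. Python 3.11.15, pandas 2.3.3 and numpy 2.4.6 were used.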

Additional observations from a re-analysis of the deposited data

Results flagged for a closer look

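A line standing far from the other 3 of its kind was looked for in 21 groups of 4 values, and 11 groups held one. For 9 of the 11, those among the epiRILs, the rate that chance gives (about 1 group in 20) is no yardstick, since the tract was chosen for a low epiRIL 150. EpiRIL 92 was far above epiRILs 150, 193 and 232 in the tract mean (0.371) and in each of the 8 stretches along it, at 0.427, 0.386, 0.424, 0.347, 0.352, 0.340, 0.351 and 0.329. These stretches regroup the same windows and are not separate support. EpiHybrid 92 was far above the other epiHybrids in the last stretch (0.340), where the means of the others lay within 0.213 to 0.215. The chance rate is no yardstick there either. That stretch lies in the tract chosen for a high Col-Wt and a low epiRIL 150, the parents of epiHybrid 150. EpiHybrid 193 was far above the other epiHybrids in the flank mean (0.0148), and without the stretch at 23202901 to 23203200 its flank mean was 0.00613.

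Line 92 also went the opposite way from the others relative to Col-Wt: epiRIL 92 was 0.0309 and epiHybrid 92 0.0403 above it, while the other 3 epiRILs and epiHybrids were below. The difference between lines was not tested, as each line has 1 column.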

How the results depend on the processing

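With no replicate columns, a value counted as moved when it changed by more than its SD over windows. By this rule none of the tract means, shares of Col-Wt, positions, mid-parent differences per line or flank means moved under the alternatives run. This spread is wide, and the rule cannot decide where the SD exceeds the value itself. The tract means of epiRILs 150, 193 and 232 were 0.00986, 0.00881 and 0.0157, with SDs of 0.0144, 0.0123 and 0.0204. Even a fall to 0 would have counted as not moved. The mid-parent differences of lines 193 and 232 had SDs of 0.0617 and 0.0541, so a change of sign could have passed. Without the first 500 bp, left out after seeing the data, the mid-parent difference of line 232 was 0.0217 and not 0.0107. That of line 193 was 0.0375 and not 0.0258. Positions were 0.274 to 0.285 in line 150, 0.385 to 0.417 in line 193 and 0.432 to 0.464 in line 232 under the alternatives. The mean difference from the mid-parent level was 0.0205 to 0.0401 with 1 line left out, each at the smallest p that 3 lines allow (exact sign-flip p = 0.25). The background subtraction lowered epiRIL 150 to 0.00420 and epiRIL 193 to 0.00344. No paired analysis was possible because the deposited columns hold 1 value per line and carry no replicate number.

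Counts of windows depended on the limit. With differences 1.5 times as large, 23, 25 and 21 windows were lower than Col-Wt in epiRILs 150, 193 and 232, and 0, 1 and 2 in their hybrids; 2, 1 and 0 windows of these hybrids were above the mid-parent level, and 1 was below it in epiHybrids 193 and 232 each. With at least 10 cytosines, 1 window of epiHybrid 150 was lower than Col-Wt, and 1 each of epiHybrids 193 and 232 was below the mid-parent level. In the windows lying between those used, 5 and 4 windows of epiHybrids 150 and 193 were above it, and 1 each of epiHybrids 193 and 232 below. Without the first 500 bp, an alternative chosen after seeing the data, 1 and 2 windows of epiHybrids 150 and 193 were lower than Col-Wt, and 0 and 1 of epiHybrids 193 and 232 were below the mid-parent level. With a level of 0.2, the edge moved to 23203751 in epiHybrid 150, 23204051 in epiHybrid 193 and 23204251 in epiHybrid 232.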
